A study of Homo sapiens and Mus musculus with 19 samples.

Results

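The outermost 2 Mb of the long arms of the 22 human autosomes were examined in 2 cell lines, H1ES and HepG2. An end was defined as the CCGG sites within 2 Mb of the last listed site of an autosome, so each of the 22 autosomes gave 1 end and no measured value entered the choice. The 22 ends held 101379 of 2211146 listed autosomal sites, between 1605 sites on 1q and 7366 on 20q. Each end was compared with the sites lying 10 to 20 Mb further in on the same chromosome (the inner zone, 200965 sites in all), matched on the number of other CCGG sites within 500 bp. H1ES is a human embryonic stem cell line and HepG2 a cell line from a human liver tumour. Neither carried a treatment or a genetic change in the labels. Each line had 2 libraries made from 1000 cells and 5 made from single cells. The assay counted tags of 3 kinds at CCGG, from unmethylated, 5-methylated (5mC) and 5-hydroxymethylated (5hmC) cytosine, and a share is given here as a percent of the tags of the 3 kinds together. The study sets populations of 1000 cells beside single cells of the same lines.

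The ends of human chromosomes carry the telomere repeat and, inside it, subtelomeric DNA that is rich in duplicated segments, genes, GC bases and CpG. 5mC at CpG is written by DNMT enzymes and is high across most of the genome, with unmethylated islands at many gene starts. TET enzymes oxidise 5mC to 5hmC. Cancer cells often lose 5mC over long, gene-poor, late-replicating stretches called partially methylated domains, while embryonic stem cells keep nearly uniform 5mC.

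The 1000-cell libraries held 4911898 to 6644517 tags in all and the single cells 526207 to 2455908. In the ends the 1000-cell libraries held 158476 to 247809 tags in the ends, and the single cells 20856 to 94885. A single end held between 2403 and 28272 tags in a 1000-cell library. Coverage fell with crowding: in H1ES 71.7% of isolated sites of the ends held a tag, against 3.63% of sites with 15 or more others within 500 bp. As a check of the labels, 6 of 7 marker genes of H1ES had a larger unmethylated share at their start in both H1ES libraries, among them POU5F1 with means of 84.3% in H1ES and 5.21% in HepG2. Of 10 marker genes of HepG2, 7 had tags in each library and 5 of these were less methylated in both HepG2 libraries, while ALB, AFP and APOA2 had none. Nothing in the labels says that libraries came from separate cultures, so a p-value here reflects library-to-library spread, possibly of technical origin.

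The gene starts of the ends that separated the lines furthest, and that hold CCGG in the RefSeq promoter, show what the assay reads there. The 250 bases before the start are printed 5′ to 3′ from RefSeq (GRCh38.p14), with each CCGG in capitals.
FTCD, chr21:46155580-46155829, minus strand: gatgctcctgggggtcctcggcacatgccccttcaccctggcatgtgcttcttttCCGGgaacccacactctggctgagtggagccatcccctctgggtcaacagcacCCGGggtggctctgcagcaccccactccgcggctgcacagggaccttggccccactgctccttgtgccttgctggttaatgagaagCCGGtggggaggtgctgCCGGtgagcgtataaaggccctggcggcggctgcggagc
SLC34A3, chr9:137230507-137230756, plus strand: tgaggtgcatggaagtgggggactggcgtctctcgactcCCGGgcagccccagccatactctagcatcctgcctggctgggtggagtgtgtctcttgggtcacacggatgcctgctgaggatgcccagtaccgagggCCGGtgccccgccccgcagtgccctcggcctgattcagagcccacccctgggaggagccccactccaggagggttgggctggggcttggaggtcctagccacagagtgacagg
CDK10, chr16:89686439-89686688, plus strand: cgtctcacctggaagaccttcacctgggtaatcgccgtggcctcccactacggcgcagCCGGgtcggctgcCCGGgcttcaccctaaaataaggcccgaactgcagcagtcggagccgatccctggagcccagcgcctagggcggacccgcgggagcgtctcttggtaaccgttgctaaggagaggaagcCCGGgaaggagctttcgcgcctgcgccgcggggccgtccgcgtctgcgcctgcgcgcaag
FTCD, an enzyme of histidine breakdown in the liver, held 4 CCGG in this stretch, and 0 of 7 tags were unmethylated in H1ES against 7 of 8 in HepG2. SLC34A3, a sodium-phosphate transporter of the kidney, held 2 CCGG, with 0 of 8 unmethylated tags in H1ES and 6 of 6 in HepG2. The gene (chr9:137229730-137236555) has 3 listed starts, and the stretch printed lies inside it, before an inner start. CDK10, a cyclin-dependent kinase, held 3 CCGG and went the other way, with 19 of 23 unmethylated tags in H1ES and 0 of 27 in HepG2. BTBD6 also met the rule, but its stretch held 3 tags in H1ES and 1 in HepG2, and it is not shown. The letters CCGG, which read the same on both strands, occurred in 74.6% of the 1194 RefSeq promoters of the ends, in 59.3% of those in the inner zones and in 58.5% of all 35116.

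At matched CCGG density, the ends carried more 5mC than the inner zones in both lines. In H1ES the end shares were 93.3% and 93.9% in the 2 libraries, against matched inner shares of 86.7% and 87.8%. The mean difference was 6.38 percentage points ± 0.387 (SD, n = 2). In HepG2 the ends held 65.2% and 66.1%, against 61.997% and 62.9%, a difference of 3.22 points ± 0.0327 (SD, n = 2). In both lines the end values lay above the inner values without overlap. Among single cells the difference was 5.71 to 6.46 points in the 5 H1ES cells and 2.85 to 3.62 points in the 5 HepG2 cells, each cell above its own inner zone. Single cells were not tested. Counting error was small beside these gaps, and the exact (Clopper-Pearson) 95% interval of the first H1ES cell ran from 93.1% to 93.6%. These pooled differences turned on the comparison: without matching, the H1ES ends lay 0.492 points below the inner zones, and at isolated sites alone the H1ES difference was 0.113 points. In HepG2 the difference was 6.71 points at isolated sites, but ends drawn 4 Mb wide lay 0.847 points below the inner zones.

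The excess in H1ES sat at crowded sites. Isolated sites held 96.8% 5mC in the ends and 96.7% in the inner zones. With 3 to 4 others within 500 bp the shares were 94.4% and 90.6%. With 7 to 9 others the ends held 84.8% ± 0.156 (SD, n = 2) and the inner zones 47.97% ± 1.07, a gap of 36.9 points. With 10 to 14 others the shares were 64.4% and 26.0%. HepG2 had a different shape. Its isolated sites held 65.1% in the ends and 60.1% in the inner zones, the ends were lower by 2.61 points in the class of 3 to 4 others, and they were higher by 16.6 points with 7 to 9 others and by 21.3 points with 10 to 14. Crowded sites made up more of the ends: the class of 15 or more others took 10.98% of end sites and 5.03% of inner sites, while isolated sites took 9.05% and 27.4%. The tags behind the most crowded class were few, 2834 in both H1ES libraries of the ends together.

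**Figure D1:**
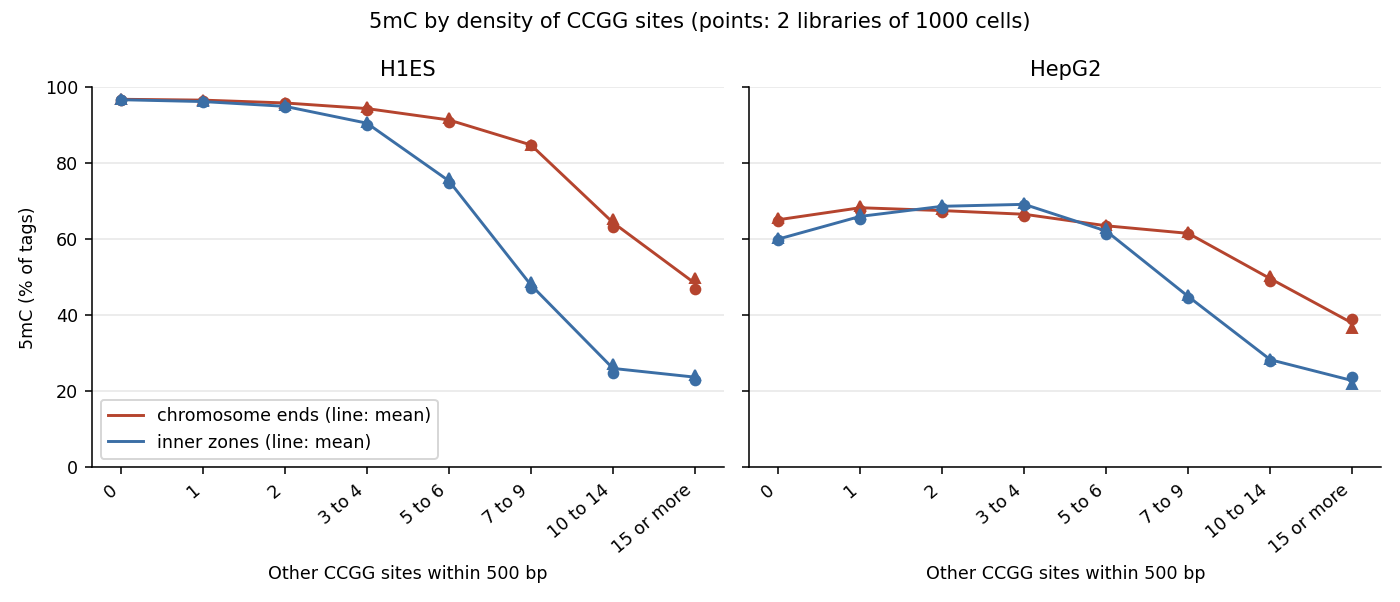
Share of 5mC (vertical axis, % of tags) in 8 classes of CCGG density (horizontal axis, other CCGG sites within 500 bp) for the 22 ends and their inner zones, in H1ES (left) and HepG2 (right). Points are the 2 libraries of 1000 cells and lines their mean. In H1ES the curves meet at isolated sites and part from 3 to 4 others on, while in HepG2 the ends are lower at 2 to 4 others and higher from 5 on.

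Crowded sites of the ends lay less often at gene starts. Among sites with 5 or more others, 23.9% of those in the ends and 43.9% of those in the inner zones were within 1 kb of a RefSeq start (21 chromosomes, since chromosome 8 has no starts in the table used). Split by position, H1ES held more 5mC in the ends at both kinds of site. Within 1 kb of a start, the H1ES shares were 51.3% ± 1.95 (SD, n = 2) in the ends and 23.3% ± 0.716 in the inner zones. More than 1 kb from any start or gene end, they were 93.1% ± 0.353 and 80.2% ± 0.838. In HepG2 the starts held 35.7% ± 0.198 in the ends and 20.7% ± 0.0491 in the inner zones. Away from starts and gene ends, HepG2 had 65.4% ± 0.428 in the ends and 68.97% ± 1.31 in the inner zones, the reverse order. With 10 or more others the order was the opposite, and the same position held 63.5% in HepG2 ends and 52.4% in the inner zones. At 5 or more others, sites in this position inside protein-coding genes held 73.9% in HepG2 ends and 74.5% in the inner zones. Those outside protein-coding genes held 48.2% and 58.3%. H1ES had 93.6% and 81.1% inside, and 91.9% and 78.5% outside.

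Along the arm, H1ES isolated sites stayed between 96.1% and 97.5% in every step of the last 20 Mb. H1ES crowded sites (5 or more others) rose inward from 69.4% in the last 50 kb to 86.7% at 500 to 1000 kb. They reached 87.5% at 2 to 3 Mb and fell from there to 55.9% at 15 to 20 Mb. The 2 Mb border therefore did not mark a step, since the neighbouring 1.5 to 2 Mb held 85.6%. HepG2, over all sites, peaked at 74.4% ± 0.712 (SD, n = 2) at 250 to 500 kb, fell to 61.0% at 1.5 to 2 Mb and to 56.1% at 6 to 8 Mb, and was back at 64.6% at 10 to 15 Mb. The last 50 kb held 61.0% ± 0.916 in HepG2 and 91.6% ± 0.368 in H1ES. The crowded sites of that last step held 411 tags in both H1ES libraries together, so its value is the least certain. The arms also did not contribute equally to the outermost steps. In the last 100 kb, the H1ES library with fewer tags held 2 at 5q, 5 at 9q and 10 at 10q. A tag was seen in H1ES at 21.4% of sites in the last 50 kb, against 43.1% at 50 to 100 kb.

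**Figure D2:**
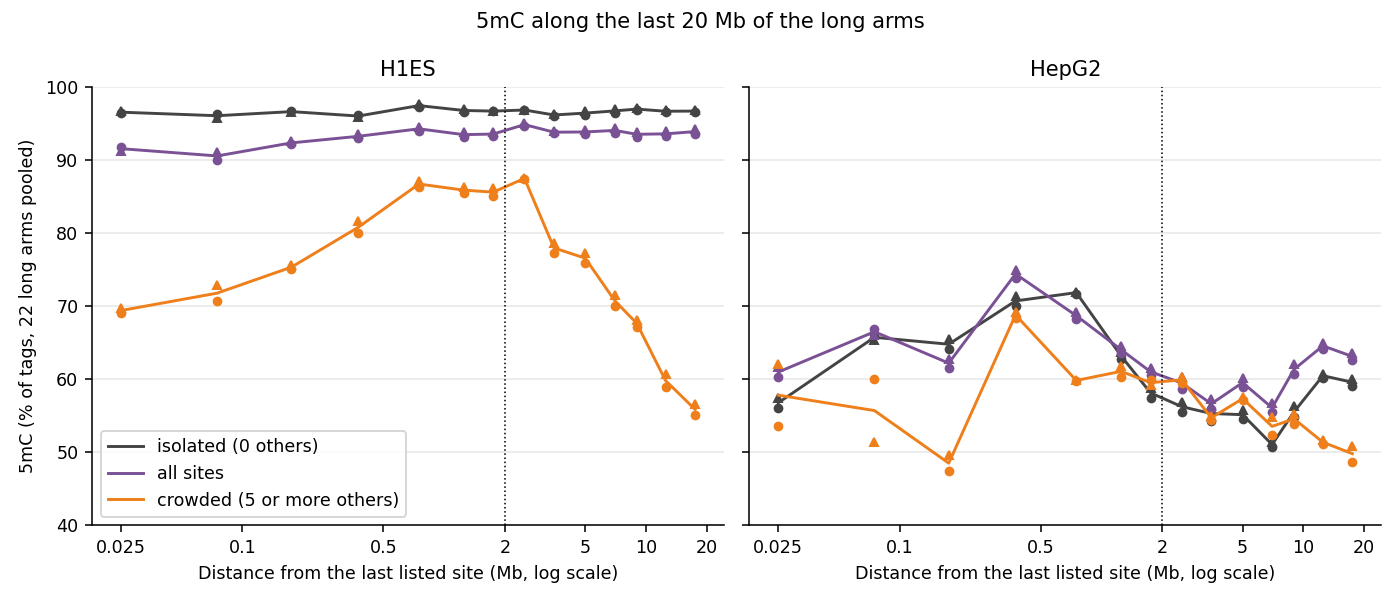
Share of 5mC (vertical axis, % of tags, 22 long arms pooled) against distance from the last listed site (horizontal axis, Mb, log scale) in H1ES (left) and HepG2 (right), for isolated, crowded and all sites. Points are the 2 libraries of 1000 cells, lines their mean, and the dotted line marks 2 Mb. Crowded sites of H1ES are highest between 0.5 and 3 Mb. HepG2 peaks at 0.25 to 0.5 Mb over all sites and crowded sites, and at 0.5 to 1 Mb at isolated sites.

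End by end, the H1ES excess was nearly general. Tested with edgeR's quasi-likelihood test on tags against those expected from the matched inner zone, 5mC was higher in 20 of 22 ends and lower in 1, at an adjusted p under 0.05 over 1275 autosomal windows of 2 Mb. Of all windows, 47.1% were called higher and 25.9% lower, so calls are common in this test. The median log2 odds ratio was 1.004 over the ends and 0.14 over all windows. Without density matching the ends divided evenly, with 9 called higher and 10 lower, and at isolated sites 6 were higher and 5 lower. The shares over all windows are not given for these settings, so these counts cannot be set against a background. In 19 ends all 7 libraries of H1ES, single cells included, lay above the matched inner zone.

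The largest excess was at 10q (chr10:131787608-133787118), the end with CYP2E1 and the DUX4-related repeats. Its H1ES libraries held 94.3% and 94.3%, against 79.9% and 80.8% expected, a difference of 13.9 points ± 0.6502 (SD, n = 2) and a log2 odds ratio of 2.01. The second was 21q (chr21:44699884-46699626), with 93.5% and 94.2% against 82.7% and 84.6%. The third was 9q (chr9:136333217-138333096), with 92.2% and 92.8% against 81.96% and 83.7%. The end levels of these differed little from those of other ends, whose H1ES means ran from 89.5% on 19q to 96.6% on 4q, and their inner zones were among the lowest. At isolated sites the sign turned at 10q (log2 odds ratio -0.48) and 21q (-0.0498, not called, edgeR adjusted p 0.82). Without matching it turned at 21q (-0.23).

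At the other side stood 19q, 1q and 6q. 19q (chr19:56609512-58607391) carries a large cluster of zinc finger genes of the KRAB type, which silence repeats. It held 89.5% in both H1ES libraries against 90.3% and 91.1%, a fall of 1.17 points ± 0.572 (SD, n = 2; edgeR log2 odds ratio -0.18, adjusted p 0.000166). That call was lost without H1ES replicate 2 (adjusted p 0.062), and the sign turned at isolated sites, where the log2 odds ratio was 0.76. 1q (chr1:246945723-248945333), a cluster of olfactory receptor genes, held 91.95% and 93.4% against 92.5% and 93.3%. Its groups overlapped and no difference was called (edgeR adjusted p 0.485). 6q (chr6:168748465-170745774) was higher by 1.88 points ± 0.219.

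**Figure D3:**
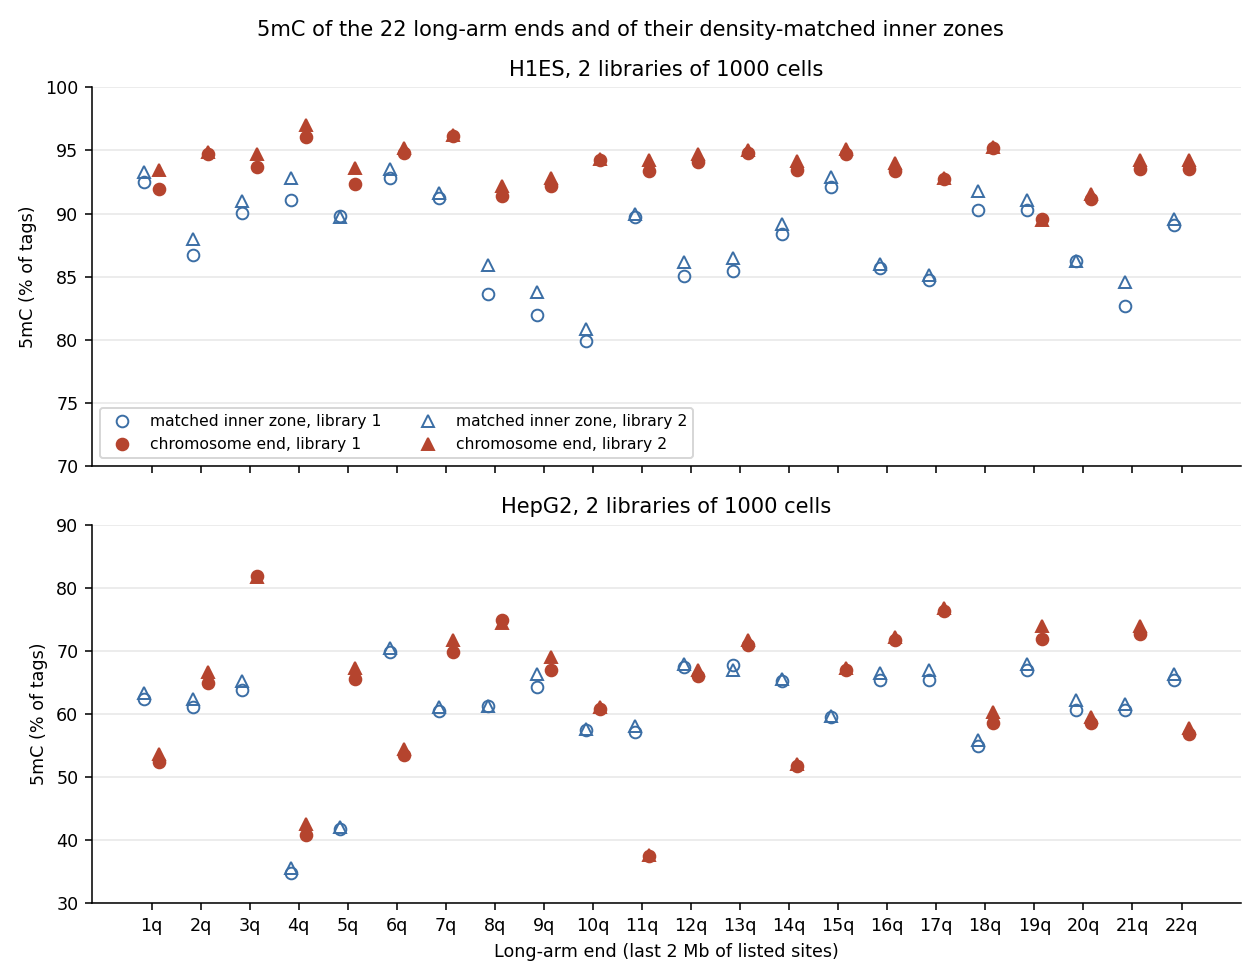
Share of 5mC (vertical axis, % of tags) of the 22 long-arm ends (filled) and of their density-matched inner zones (open) in the 2 libraries of 1000 cells (circles, triangles), for H1ES (top) and HepG2 (bottom, another scale). The vertical axes do not start at 0. H1ES ends lie in a narrow band above their inner zones except at 19q and 1q, and HepG2 ends scatter to both sides.

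HepG2 ends differed from one another far more. Their 5mC ran from 37.6% at 11q to 81.8% at 3q. In the same edgeR fit, 15 of 22 ends were higher than the matched inner zone and 7 lower, where 37.5% of all windows were called higher and 55.6% lower. With ends of 4 Mb the split was 10 higher and 11 lower, a setting for which the share over all windows is not given. The median log2 odds ratio was 0.26 over the ends and -0.23 over all windows. The SD over the 22 differences was 10.9 and 11.04 points in the 2 HepG2 libraries, against 3.72 and 3.41 points in H1ES.

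5q (chr5:179472594-181472219) stood highest, with 65.5% and 67.2% in HepG2 against 41.8% and 42.1% expected, a difference of 24.5 points ± 1.02 (SD, n = 2). 3q (chr3:196231096-198230968) followed, with 81.9% and 81.6% against 63.8% and 65.2%. 8q (chr8:143076927-145076519) held 74.9% and 74.4% against 61.2% and 61.2%. In the 3 ends every one of the 5 HepG2 cells was above its inner zone as well. For 8q the sign turned when the end was drawn 4 Mb wide (log2 odds ratio -0.13).

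11q (chr11:133077828-135076423) stood lowest, with 37.5% and 37.6% in HepG2 against 57.2% and 58.1%, a fall of 20.1 points ± 0.631 (SD, n = 2). 6q held 53.4% and 54.4% against 69.8% and 70.5%, and 14q (chr14:104884060-106883688), which ends in the immunoglobulin heavy chain genes, held 51.8% and 52.1% against 65.3% and 65.6%. At 11q, 6q, 14q, 22q and 1q none of the 5 HepG2 cells was above its inner zone. With an inner zone of 5 to 10 Mb, the sign at 6q turned (log2 odds ratio 0.26).

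**Figure D4:**
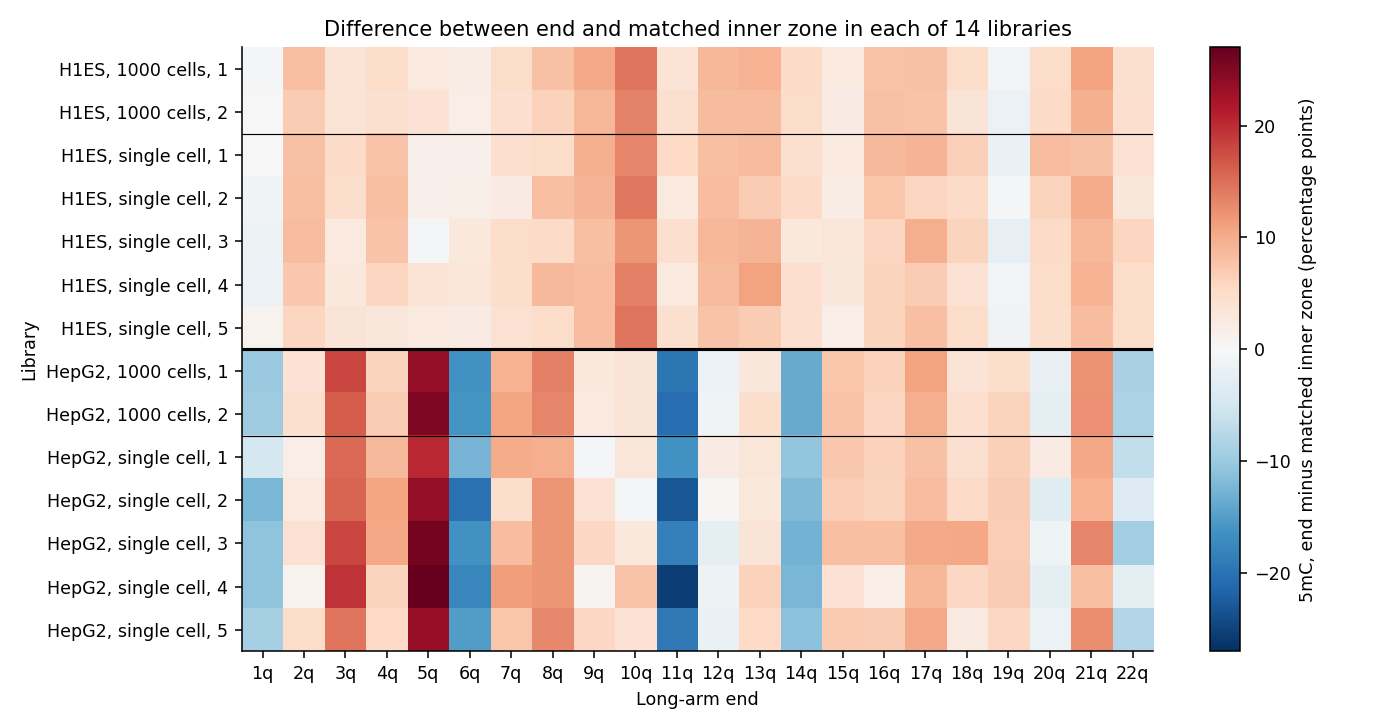
Difference in 5mC between end and matched inner zone (colour, percentage points) for the 22 long-arm ends (columns) in each of 14 libraries (rows: 1000 cells and single cells of H1ES above the thick line, of HepG2 below). Red is higher at the end and blue lower. HepG2 single cells repeat the signs of the 1000-cell libraries at 3q, 5q, 6q, 11q and 14q, with differences between -25.4 and 27.7 points.

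The pattern over the ends recurred within a line and not across lines. The 22 differences correlated at r = 0.997 between the HepG2 1000-cell libraries and at r = 0.982 between those of H1ES, and single cells correlated at 0.906 to 0.992 with the first 1000-cell library of their line. Between the lines r was 0.182 and 0.216. These are descriptions over 22 ends that share libraries, sites and depth. Tested as a difference of differences on log odds (edgeR), the end effect was lower in HepG2 than in H1ES at 18 ends and higher at 3, namely 3q, 5q and 19q, with 54.7% of all windows lower and 33.5% higher. The choice of scale mattered, since H1ES lies near the upper limit of 5mC: in percentage points 13 ends were lower in HepG2 and 9 higher, and 5 ends called lower in log odds were higher in points. Without matching, or at isolated sites alone, 12 ends were higher in HepG2 and 6 lower. The shares over all windows given above belong to the matched fit and cannot be set beside these counts. At 6 ends H1ES was called higher than its inner zone and HepG2 lower (6q, 11q, 12q, 14q, 20q and 22q).

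5hmC was low in both lines and differed little between ends and inner zones. In H1ES the ends held 1.84% and 1.67% against 1.798% and 1.62%, and in HepG2 0.2301% and 0.298% against 0.227% and 0.276%. Of 22 ends, edgeR called 3 higher and 3 lower in H1ES, where 11.5% of all windows were higher and 17.5% lower. It called 2 higher and 0 lower in HepG2, where 4.55% and 2.67% of windows were called. The lower ends in H1ES included 19q, with 0.88% and 0.788% against 1.49% and 1.32% expected (log2 odds ratio -0.76, adjusted p 5.4e-06), and 0 of 5 single cells above. 1q fell by 0.464 points ± 0.0139 and 14q by 0.416 points ± 0.134 (SD, n = 2). The higher ones included 20q, at 2.53% and 2.25% against 1.95% and 1.77% (adjusted p 0.0121), with 5 of 5 cells above. In HepG2, 8q held 0.297% and 0.414% against 0.126% and 0.190% (adjusted p 3.0e-05), and 5q 0.294% and 0.257% against 0.086% and 0.143%. All 5 HepG2 cells were above at 8q and 2 of 5 at 5q. Between lines the end effect was higher in HepG2 at 2 ends and lower at 1, where 3.14% and 3.84% of windows were called. The H1ES calls rested on both H1ES libraries: without either one edgeR called 0 ends, with 2 and 1 at an unadjusted p under 0.05, and limma on logit shares called 0, with 1. With the replicate block 1 end was called in H1ES. In HepG2 edgeR called 0 ends at isolated sites alone and with 1 Mb ends, and limma called 0 (1, 5 and 5 at an unadjusted p under 0.05). The sign at 8q turned at isolated sites and with an inner zone of 5 to 10 Mb (log2 odds ratio -0.44 in both). Neither value was called (edgeR adjusted p 0.79 and 0.14).

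The short-arm ends of the 17 autosomes whose listed sites begin at one gave a similar pooled value and another pattern by chromosome. Their first 2 Mb differed from the matched inner zone by 6.93 points ± 0.805 (SD, n = 2) in H1ES and by 5.78 points ± 0.0321 in HepG2, against 6.32 and 3.98 points for the long arms of the same chromosomes. In HepG2, 12 of 17 short arms were above in both libraries and 5 below, and 8 chromosomes had arms that went opposite ways. On chromosome 3 the short arm was lower by 36.9 and 33.7 points in the 2 HepG2 libraries and the long arm higher by 18.1 and 16.4. On chromosome 11 the short arm was higher by 8.53 and 9.06 points and the long arm lower by 19.6 and 20.5.

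Within the ends, HepG2 alternated between stretches of low and high 5mC while H1ES did not. Of 429 bins of 100 kb with at least 20 tags in each library, 138 (32.2%) were under 50% in both HepG2 libraries, compared with 44.1% of inner-zone bins and 48.4% of all bins. At the other extreme 115 (26.8%) were at 80% or more, compared with 20.3% and 18.3%. In H1ES 0 of 429 were under 50% and 423 were at 80% or more. Against H1ES, edgeR called 396 bins lower in HepG2 and 8 higher, where 90.7% of all autosomal bins were lower and 0.885% higher. The median log2 odds were -3.07 in the ends and -4.54 over all bins. Relative to each library's own odds, 189 bins were higher and 166 lower, where 26.6% and 54.9% of all bins were called.

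The longest run under 50% spanned 11 bins of 1q (chr1:247400001-248500000), which holds olfactory receptor genes. It contains the lowest bin of the ends, chr1:248300001-248400000, with 90.6% and 97.5% in H1ES and 14.3% and 17.4% in HepG2. 11q had 18 of 20 bins under 50% and a run of 10, and 14q a run of 9. 3q had no bin under 50% in both HepG2 libraries and 13 of 19 at 80% or more, and 19q had none under 50% in both either. The highest bin, chr15:101300001-101400000, held 96.0% and 95.2% in H1ES and 99.2% and 99.5% in HepG2, one of the 8 that were higher in HepG2 (edgeR adjusted p 6.0e-07). On 19q, chr19:57800001-57900000 rose from 85.3% and 84.9% to 92.7% and 91.9%, a bin singled out after its values were seen.

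**Figure D5:**
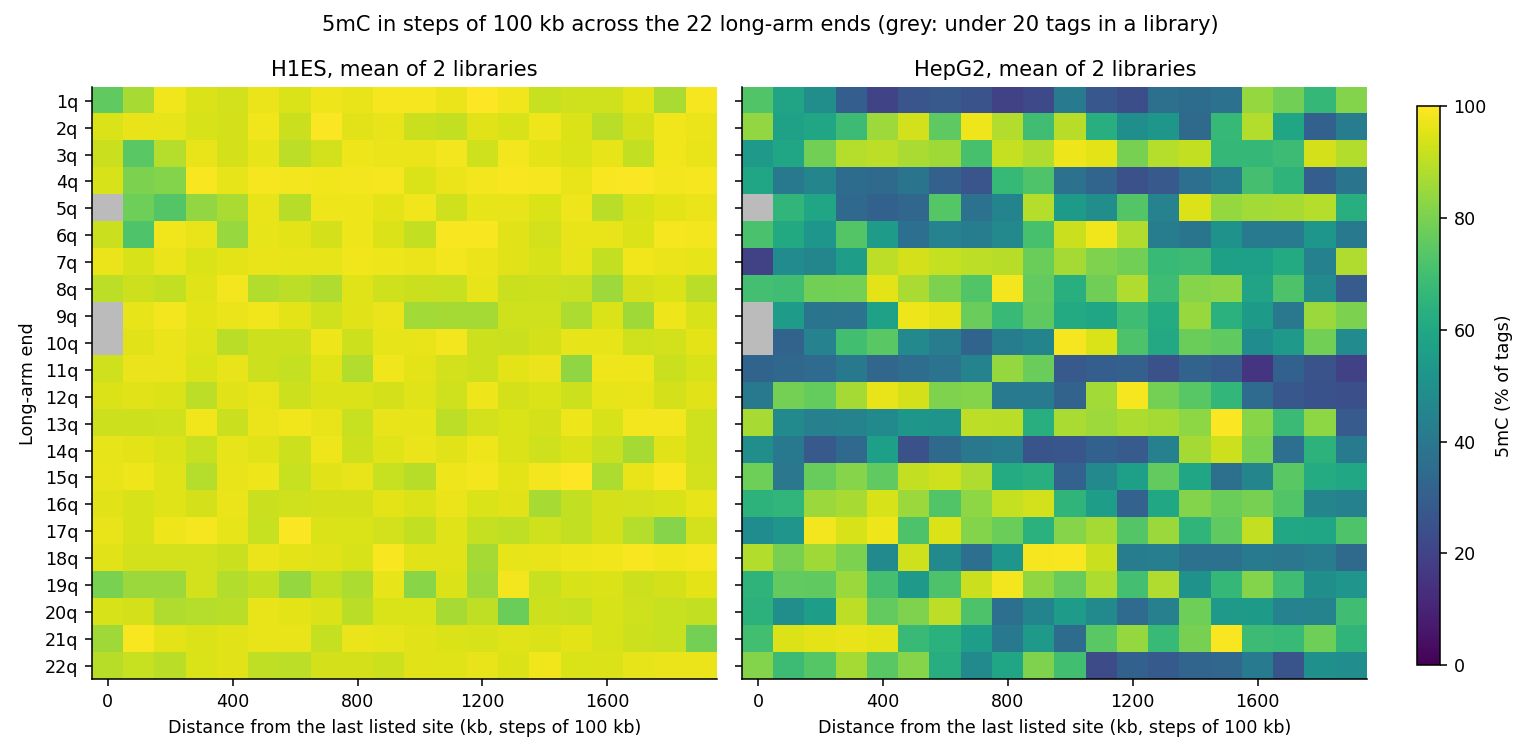
Share of 5mC (colour, % of tags, mean of 2 libraries of 1000 cells) in steps of 100 kb from the last listed site (horizontal axis, kb) of each long-arm end (rows), in H1ES (left) and HepG2 (right). Grey steps had under 20 tags in a library. H1ES lies between 72.5% and 100% throughout, and HepG2 shows low stretches on 1q, 4q, 11q and 14q and high ones on 3q.

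Of 752 protein-coding genes in the ends, 520 had at least 20 body tags in each library. 5mC was lower in HepG2 in 291 (56.0%) and higher in 12 (2.31%), against 54.9% and 2.49% of 13439 genes genome-wide (edgeR, adjusted p under 0.05), so the ends were close to the background. Relative to each library's own odds, 194 were higher and 97 lower, where 35% and 24.6% of all genes were called. Among the largest falls was OR2L13, an olfactory receptor on 1q, with 96.6% and 96.6% in H1ES and 16.3% and 26.2% in HepG2. BTNL8, a butyrophilin-like gene of gut immunity on 5q, went from 97.4% and 94.4% to 21.1% and 23.1%. CERS3, a ceramide synthase of skin on 15q, went from 99.6% and 98.5% to 36.99% and 32.1%.

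The few rises were led by F7, coagulation factor VII of the liver, on 13q. Its body held 79.7% and 65.3% in H1ES and 100% and 100% in HepG2, a gain of 27.5 points on a mean of 62.25 tags per library. KIFC2, a kinesin on 8q, rose from 49.3% and 59.4% to 81.0% and 82.4%. SFSWAP, a splicing regulator on 12q, rose from 94.1% and 94.4% to 99.3% and 99.7%. The 6 others that met the naming rule (C21orf58, YTHDF1, ANKMY1, BRF1, MAPK9 and MROH1) rose in 5mC between 1.75 and 6.53 points.

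The lists are to be read against the 54.9% of all genes that were lower and the 2.49% that were higher. The neural and ion channel genes fell in 16 of 18 measured (median log2 odds -3.91, against -1.94 over all genes), with KIF1A, a kinesin of axons, at 97.6% and 98.5% in H1ES and 34.9% and 38.4% in HepG2. Developmental regulators fell in 10 of 12 (median -3.47), among them the Notch ligand JAG2. Immune genes fell in 6 of 7 and the 5 measured olfactory receptor genes in 5. Liver genes fell in 9 of 11, CYP2E1 among them (96.8% and 97.7% to 40.9% and 37.3%), and rose in 1, F7. Zinc finger genes fell in 21 of 61 (median -0.85) and rose in 0. Housekeeping genes fell in 4 of 18 (RPL13, VPS26B, MGAT1 and PRPF6) and rose in 1 (median -0.54). The fall of FASN, the fatty acid synthase, from 100% in both H1ES libraries to 94.0% and 96.4% shows how small some called changes were. Relative to library odds the balance turned over all genes, with 35% higher and 24.6% lower. Beside that, 19 of 61 zinc finger genes were higher and 5 lower, and 3 of 11 liver genes were higher and 1 lower. In neither list was the higher share above that of all genes. Of 18 housekeeping genes, 13 were higher and 0 lower, a larger share than over all genes. Neural genes had 12 lower against 4 higher on that scale, developmental regulators 6 against 3, and immune and olfactory receptor genes 4 against 0 each.

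At gene starts, HepG2 was less methylated in many and more in few. Of 273 starts of the ends with at least 10 tags in each library, the unmethylated share was higher in HepG2 in 116 (42.5%) and lower in 12 (4.4%), against 32.6% and 5.84% of 5789 starts genome-wide (edgeR). These calls depended on the libraries used, and a fit without 1 leaves its line with 1 library. All were lost without H1ES replicate 1, H1ES replicate 2 or HepG2 replicate 1, and fewer were called without HepG2 replicate 2. Relative to library odds, 84 starts were higher and 18 lower, where 21.2% and 10.1% of all starts were called. FTCD, shown above, rose from 0% in both H1ES libraries, 0 of 36 tags, which allows up to 8.33%, to 88.9% and 100%. SLC34A3 rose from 0% and 0% to 88.9% and 82.4%, over sites around its 3 listed starts. F7 rose from 5.56% and 6.67% to 95.2% and 85.7%, so that in HepG2 its start was unmethylated and its body methylated. SLC39A4, a zinc importer on 8q (the gene end was used, as no start is listed), rose from 0% and 3.7% to 90.9% and 88.9%.

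Lists of starts are to be read against the 42.5% of starts of the ends that rose and the 4.4% that fell (32.6% and 5.84% genome-wide). Liver genes were measured at 5 starts, of which 3 rose and 0 fell. Besides F7 these were PROZ, a vitamin K-dependent plasma protein next to it on 13q (0% and 0% to 58.3% and 61.1%), and A1BG, a plasma glycoprotein on 19q (0% and 0% to 36.0% and 46.2%). Rises were not particular to liver genes: 2 of 3 immune starts and 2 of 5 starts of developmental regulators rose. So did 2 of 10 housekeeping, 1 of 8 neural and 1 of 1 olfactory receptor starts, and none of these lists had a fall. Zinc finger genes, with 27 starts, rose in 2 and fell in 5. ZSCAN18 fell from 45.5% and 56.3% to 4.0% and 14.3%, and ZSCAN1 from 53.7% and 55.9% to 23.8% and 5.26%. CDK10 fell from 90% and 88.2% to 4.35% and 0%, and BTBD6, an adaptor for ubiquitin ligases, from 71.4% and 67.7% to 0% and 3.7%. NAPRT on 8q, which makes NAD from nicotinic acid (the gene end was used, as no start is listed), fell from 40% and 56.3% to 5.0% and 0%. BRF1, a subunit of the RNA polymerase III initiation factor, lies beside BTBD6 on 14q and overlaps it, and its starts fell from 56.2% and 58.0% to 34.9% and 21.8%. Neighbours such as these, and FOXH1 and KIFC2 on 8q, can share sites, so they are not separate observations.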

How the data were processed

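The report uses 14 human libraries of DARESOME, an assay that tags CCGG sites by restriction digestion. Tools named in the submitters' processing notes are Bowtie2 2.3.4.1, cutadapt 1.5 and UMI-tools 0.5.4, with hg38 as build, and the counting rule is not given in the sources used here. The deposited counts are tags per CCGG site, and the deposited fractions are the shares of the 3 kinds of tag at that site. As no header names the columns, the unmethylated column was told by its rise at crowded sites, and the larger of the others was taken as 5mC. All 5hmC values rest on this. Fraction times count was whole within 0.00141, which gave tags of each kind. Positions are hg38, and 3629 of 3629 CCGG in a sample of RefSeq promoters were listed.

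Expected tags came from the inner zone of the same chromosome and library in 8 density classes. A class with fewer than 20 inner tags took the share over the 22 inner zones (0 to 4 of 176 cases in 1000-cell libraries, 9 to 48 in single cells). Windows, bins, gene bodies and gene starts were tested with edgeR 4.0.16 in R 4.3.3 (quasi-likelihood, 1 term per library, Benjamini-Hochberg over the whole table, threshold 0.05), with the expected tags as offset for windows. The sampling error of expected tags is not modelled, and windows of a chromosome share them, so these p-values are too small. Effects are log2 odds. The scripts were also run on simulated tags. For windows the expected tags were taken there as exact, so that run cannot measure the sampling error of expected tags. limma 3.58.1 (pseudocount 0.5) and DESeq2 1.42.0 served as alternatives. Intervals and limits at 0 (3 counts) cover counting error only. Ends named are the 3 largest and 3 smallest differences per mark and line. Genes named are the 10 largest rises and falls among called genes with no overlap between lines and a mean of at least 50 (bodies) or 10 (starts) tags, then up to 4 of each list by p, whatever their mean. A gene that met this rule is not reported here. The members, lists and tests were chosen with earlier results of these data known. 19126 genes were used, and 567 of 752 in the ends had a RefSeq start; for the others the gene end with more CCGG was used.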

Additional observations from a re-analysis of the deposited data

Results flagged for a closer look

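The difference between end and inner zone went opposite ways in the 2 lines at 7 ends, in both 1000-cell libraries of each line. As log2 odds of 5mC, HepG2 minus H1ES, it was -1.93 at 11q, -1.74 at 14q, -1.59 at 12q, -1.5 at 6q, -1.39 at 22q and -0.88 at 20q, where HepG2 was lower, and 0.55 at 19q, where HepG2 was higher (edgeR, largest adjusted p among called ends 0.017). At 12q and 20q the HepG2 differences were small, 1.24 and 2.38 points below the inner zone, and single cells were divided. For 5hmC the same contrast was called at 5q (1.36), 8q (1.08) and 20q (-0.67). These calls dropped to 0 without H1ES replicate 1, with limma, with 1 Mb ends, at isolated sites and at sites with 5 tags (4, 3, 4, 1 and 3 ends at an unadjusted p under 0.05). No single cell stood apart from the other 4 of its line in the pooled shares by Dixon's test.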

How the results depend on the processing

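Of 181 recomputed summary values, 122 stayed within 1.5 times the count or 1 SD of the value, 53 moved and 6 reversed. The cause was not tested. Counts were compared as totals of higher and lower calls, so a changed split counted as unchanged. This was so for 5mC calls of ends in H1ES without matching and in HepG2 with 4 Mb ends. It was also so between lines without matching or at isolated sites. A pooled value smaller than its SD could not count as reversed when its sign changed. The pooled 5mC difference of H1ES (6.38 points) was 4.97 with 4 Mb ends, 3.26 with an inner zone of 5 to 10 Mb, 9.15 with density within 1000 bp, 5.83 at sites with 5 tags, 5.62 with equal weights, 0.113 at isolated sites and -0.492 without matching, and 6.11 to 6.65 leaving out a library. That of HepG2 (3.22) was 6.71 with 1 Mb ends, -0.847 with 4 Mb ends, 8.29 and 4.94 with inner zones of 5 to 10 and 20 to 30 Mb, 2.34 without matching, 6.71 at isolated sites, 4.29 with density within 1000 bp, 2.696 at sites with 5 tags, 2.6998 with equal weights, 3.35 with finer classes (chosen after seeing the data) and 3.195 to 3.24 leaving out a library. For 5hmC in H1ES (0.0446) the values were -0.0989 and 0.123 with 1 and 4 Mb ends, -0.127 and 0.161 with the other inner zones, 0.127 without matching, -0.113 at isolated sites, -0.0573 with 1000 bp and 0.00469 with equal weights. In HepG2 (0.0123) they were 0.0302 and -0.00297, 0.0262 and 0.0269, -0.0239 at isolated sites and -0.0197 at sites with 5 tags. Short arms of 1 Mb in HepG2 gave 9.19 points for 5mC and 0.0607 for 5hmC.

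The number of ends called for 5mC in H1ES was 11 at isolated sites and 20 to 21 leaving out a library. For 5hmC in H1ES it was 2 at isolated sites and at sites with 5 tags, 0 with limma (1 at an unadjusted p under 0.05), 1 with the replicate block and 0 to 8 leaving out a library. In HepG2 it was 0 with 1 Mb ends, at isolated sites and with limma (5, 1 and 5 unadjusted), 5 with 4 Mb ends, and 1 without matching and at sites with 5 tags. For the difference between lines it was 0 with 1 Mb ends, at isolated sites, at sites with 5 tags and with limma (4, 1, 3 and 3 unadjusted), and 0 to 4 leaving out a library. Gene starts gave 43 calls at a minimum of 20 tags, 218 with no minimum and 0 to 69 leaving out a library. Bins gave 393 to 400 and bodies 264 to 284.

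Replicates share only a number across lines: their deviations correlated at 0.126 for 5mC and 0.0168 for 5hmC over 1400 windows. With the replicate number as a block, 21 ends were called for 5mC in H1ES, 22 in HepG2 and 21 between lines, 406 bins, 296 bodies and 120 starts.

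Reversed means here that a called value changed sign, whether or not the new value was called. Of 204 values for named ends, 8 of 5mC reversed, as did 4 of 204 for 5hmC. In H1ES 5mC these were 19q with 4 Mb ends (0.13) and at isolated sites (0.76), 6q without matching (-0.0568), 21q without matching (-0.23) and at isolated sites (-0.0498), and 10q at isolated sites (-0.48). In HepG2 they were 6q with an inner zone of 5 to 10 Mb (0.26) and 8q with 4 Mb ends (-0.13). For 5hmC they were 14q with 4 Mb ends (0.0135) and 20q with an inner zone of 5 to 10 Mb (-0.0292) in H1ES, and 8q in HepG2 with that zone (-0.44) and at isolated sites (-0.44). None of these 5hmC values was called after the turn (edgeR adjusted p 0.14 to 0.99). For 5mC in H1ES, neither 6q without matching nor 21q at isolated sites was called (edgeR adjusted p 0.41 and 0.82). Relative to library odds, the bodies of HDLBP (0.46), MGAT1 (2.02), PRPF6 (1.17), RPL13 (1.14) and VPS26B (1.06) reversed. Of these bodies only MGAT1 was called on that scale (edgeR adjusted p 2.95e-07). No named start reversed, but 109 of 320 values for named starts were no longer called. The same held for 31 of 395 values for named bodies and 45 of 204 for 5hmC of named ends. Fits that leave out a library are among these. Few tags lie behind the most crowded sites, and few 5hmC tags behind each end in HepG2.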
